A study of Homo sapiens with 6 samples.

Results

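The metalloproteases, calpains and protease inhibitors of C4-2 cells are described here across 3 culture conditions. C4-2 cells come from LNCaP, a human prostate cancer line, and can grow in castrated hosts. The genes were taken by their symbols from the protein-coding entries of the array's probe table: matrix metalloproteases (MMP), ADAMs and ADAMTS proteins, TIMPs, serpins, type II membrane serine proteases, urokinase and its receptor, calpains and cystatins. The pattern found 71 genes of the 14812 that carried a name, and each was read by its brightest probeset. They were 19 MMPs, 19 ADAMs, 5 ADAMTS-like proteins, 4 TIMPs, 11 calpains, 12 cystatins and ST14, the membrane serine protease matriptase. The serpins, the TMPRSS genes, PLAU and PLAUR, the ADAMTS enzymes, CAPN1, CAPN2, MMP2, MMP3, MMP7 and MMP9 had no named probeset here and are not analysed here.

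RNA from 6 cultures was hybridised to Affymetrix Human Gene 2.0 ST arrays, 2 arrays per group, which the labels call biological replicates. The knockdown cultures were transfected with a pool of siRNAs against PRKDC, the gene of DNA-PKcs, for 96 h. The NU7441 cultures received 1 µM of NU7441, a small molecule that blocks the kinase activity of DNA-PKcs, for 24 h. The control cultures are labelled as treated with DMSO, and the protocol also names a control siRNA pool without saying which arrays received it. All groups grew in medium that contained hormones. PRKDC itself had no named probeset here, so the depletion rests on the labels, and the knockdown is transient and in 1 cell line.

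Proteases at and outside the cell surface cut matrix proteins, adhesion molecules and growth factor precursors. MMPs are zinc enzymes that degrade collagens, laminins and other matrix proteins, and the membrane-type MMPs do so at the cell surface. ADAMs are membrane proteins with a metalloprotease and a disintegrin domain, and those with an intact active site release the outer parts of other membrane proteins, a process called shedding. TIMPs inhibit MMPs and some ADAMs. Calpains are intracellular, calcium-regulated cysteine proteases, and cystatins inhibit cysteine proteases of the papain family such as the cathepsins.

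Promoter sequences are shown for CAPN6, MMP15, CST3, ADAM10 and ADAM17, so that their base composition and common promoter motifs can be compared. Their changes under NU7441 passed the test however the arrays were scaled. MMP16 and CST4 passed likewise but had no promoter entry. The sequences have the following source and marks. They come from RefSeq, build GRCh38.p14, cover 250 bases before and 50 bases after the annotated start, and are written 5′ to 3′ on the strand of the gene. Capitals mark matches on either strand to the TATA box with letters TATAAA, the box with letters CCAAT, the GC box with letters GGGCGG, the AP-1 site with letters TGANTCA, the E-box with letters CACGTG or the forkhead core with letters GTAAACA. In these 5 windows 0 matches overlapped another motif. CAPN6 lies at chrX:111270434-111270733, minus strand, MMP15 at chr16:58025504-58025803, plus strand, CST3 at chr20:23637906-23638205, minus strand, ADAM10 at chr15:58749658-58749957, minus strand and ADAM17 at chr2:9555781-9556080, minus strand.
CAPN6: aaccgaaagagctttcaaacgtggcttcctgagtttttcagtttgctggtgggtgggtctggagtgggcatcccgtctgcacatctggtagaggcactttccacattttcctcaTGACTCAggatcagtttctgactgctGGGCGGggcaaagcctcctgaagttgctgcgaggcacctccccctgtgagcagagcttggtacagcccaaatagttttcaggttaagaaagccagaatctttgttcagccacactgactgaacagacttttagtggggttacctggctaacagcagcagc
MMP15: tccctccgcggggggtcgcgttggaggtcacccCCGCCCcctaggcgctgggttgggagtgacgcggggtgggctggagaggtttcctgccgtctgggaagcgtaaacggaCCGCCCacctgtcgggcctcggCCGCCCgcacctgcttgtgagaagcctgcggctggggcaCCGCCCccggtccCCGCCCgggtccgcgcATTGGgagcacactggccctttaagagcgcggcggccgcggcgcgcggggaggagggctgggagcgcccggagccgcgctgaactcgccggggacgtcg
CST3: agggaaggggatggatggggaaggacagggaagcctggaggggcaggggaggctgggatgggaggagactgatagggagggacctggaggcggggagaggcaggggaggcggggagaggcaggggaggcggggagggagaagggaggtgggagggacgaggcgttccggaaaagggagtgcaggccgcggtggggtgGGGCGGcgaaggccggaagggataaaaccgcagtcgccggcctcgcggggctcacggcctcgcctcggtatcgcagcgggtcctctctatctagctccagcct
ADAM10: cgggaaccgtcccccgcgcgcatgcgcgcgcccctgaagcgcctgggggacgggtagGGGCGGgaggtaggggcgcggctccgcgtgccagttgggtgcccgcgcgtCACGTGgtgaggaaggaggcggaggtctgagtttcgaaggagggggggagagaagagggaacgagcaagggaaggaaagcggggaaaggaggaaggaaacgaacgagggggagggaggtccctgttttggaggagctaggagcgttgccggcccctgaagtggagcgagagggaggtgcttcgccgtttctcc
ADAM17: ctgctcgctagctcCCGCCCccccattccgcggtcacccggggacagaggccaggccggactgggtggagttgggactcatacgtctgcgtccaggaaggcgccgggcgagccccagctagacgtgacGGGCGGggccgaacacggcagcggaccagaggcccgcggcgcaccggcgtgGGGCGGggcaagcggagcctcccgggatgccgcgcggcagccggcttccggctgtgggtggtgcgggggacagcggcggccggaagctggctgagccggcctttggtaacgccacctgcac
Of the 71 genes 45 had an entry. The CAPN6 window was 51.7% G and C and held 1 AP-1 match and 1 GC box, while the windows of MMP15 and ADAM17 were 75.3% and 74.7% G and C and held 5 and 3 GC boxes. MMP15 also had 1 CCAAT match. The ADAM10 window had 1 GC box and 1 E-box, and the CST3 window had 1 GC box. Over all 27305 promoters of this length the AP-1 motif was found in 7.76%, the GC box in 44.6% and the E-box in 7.43%. Among the 45 promoters of these families the shares were 8.89%, 57.8% and 11.1%. A match is only a run of letters in the window.

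The deposited values are linear intensities with a floor just above 16, so a value near 16 is as low as the scale goes, and levels of different genes cannot be set against each other. Many of these genes were dim: 32 of the 71 (45.1%) stayed under 32 on all 6 arrays, against 22.8% of all genes. The dim end of the whole array lay lower in treated cells. The median probeset read 28.4 and 27.6 in knockdown cells, 24.6 and 26.0 in NU7441 cells, and 31.5 and 31.6 in control cells, while the 95th percentile was between 289 and 299 on all 6 arrays. Replicates correlated at 0.976 in knockdown, 0.942 in NU7441 and 0.990 in control cells (Pearson r across genes on the log2 scale). Luminal prostate markers were bright on every array, with KLK3 between 709.5 and 1213. Of the 11 measured markers of basal, stromal, endothelial and leukocyte cells, 6 stayed under 32 on all arrays and the brightest was CD68, a macrophage marker that other cells also express, between 114.6 and 159.6.

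NU7441 against control asks how these genes answered to block of the kinase. In NU7441-treated cells 4 genes rose, the membrane-type metalloproteases MMP15 and MMP16, the sheddase ADAM10 and the cathepsin inhibitor CST3. Another 14 fell, led by the calpain CAPN6, the salivary-type cystatin CST4 and the sheddase ADAM17. A gene counts as changed where limma's moderated test over all 14812 genes gave a Benjamini-Hochberg adjusted p under 0.05. The 4 higher genes are 5.63% of the 71, against 10.8% of all genes, and the 14 lower genes are 19.7%, against 22.4% of all genes. With 33.2% of all genes called in either direction, these shares are no larger than the background. Among the 32 dim genes 0 were higher and 4 (12.5%) lower, against 0.414% and 12.5% of all dim genes, and among the other 39 genes 10.3% were higher and 25.6% lower, against 13.9% and 25.3%. Their median log2 fold change was −0.30, against −0.23 for all genes. Both treated arrays lay above both control arrays for 12 genes and below them for 39, against 22.7% and 47.3% of all genes.

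The number of lower genes depended on how the arrays were scaled. The median log2 fold change of all genes was 0.05 after quantile normalization and 0.09 after median centring, against −0.23 as deposited. After quantile normalization 6 of the 71 genes were higher and 4 lower, against 2172 and 1987 of all 14812 genes. After centring each array on its median 10 were higher and 3 lower, against 2927 and 1441 of all genes. Each share of the 71 was below that of all genes. CAPN10 and CST11 were called higher under each of these scalings, and ADAM9, ADAM15, CAPN7 and CST7 after median centring and not after quantile normalization. All 4 genes called higher as deposited kept the call under both scalings, whereas of the 14 called lower only CAPN6, CST4 and ADAM17 did. MMP27 kept it under quantile normalization alone. CAPN6 and MMP16 kept their calls without either control array, and CST3 kept its call without control replicate 2. The other calls were lost in these fits, as were most calls over all genes. Without NU7441 replicate 2, which leaves 1 NU7441 array, more genes were called, among the 71 and among all genes alike. The median log2 fold change was then −0.34 for the 71 and −0.32 for all genes.

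Knockdown against control asks the same of depletion of DNA-PKcs. After knockdown CAPN6 fell, and it was the 1 gene of the 71 that passed the threshold, while 0 were higher. These shares, 1.41% lower and 0 higher, stand beside 0.486% and 0.284% of all genes, 0.77% in either direction. The genes nearest to the threshold were the cystatins CSTA (log2 fold change 0.62 ± 0.13, adjusted p = 0.0627) and CST3 (0.88 ± 0.19, adjusted p = 0.0648), both higher on each knockdown array than on either control array. Here and elsewhere ± gives the moderated standard error from limma, with n = 2 per group. The median log2 fold change was −0.20, against −0.09 for all genes, and 12 genes were above and 35 below the controls on both arrays, against 23.4% and 38.2% of all genes. CSTA passed under both scalings and CST3 after quantile normalization (adjusted p = 0.0492). With the NU7441 arrays left out of the fit 11 of the 71 were called (3 higher, 8 lower), against 2843 of all 14812 genes (1021 higher, 1822 lower). With the replicate number as a block 0 of the 71 were called, against 37 of all genes. In that fit 3 of the 71 were higher and 10 lower at an unadjusted p under 0.05. Without the block 3 of the 71 were higher and 11 lower at that level, against 989 and 1916 of all 14812 genes.

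Knockdown against NU7441 tests directly where the treatments differed. Depleted cells had more MMP13, ADAM23, CAPN5, CST4 and CSTA signal than inhibited cells and less MMP16 signal. The 5 higher genes are 7.04% of the 71, against 5.83% of all genes, and the 1 lower gene is 1.41%, against 2.84% of all genes, with 8.67% of all genes called in either direction. Both knockdown arrays lay above both NU7441 arrays for 23 genes and below them for 12, against 32.9% and 19.6% of all genes. Without knockdown replicate 1 the median log2 fold change was 0.01 for the 71 genes and 0.09 for all genes. Without knockdown replicate 2 it was 0.18 and 0.12. In these fits, with 1 knockdown array left, nearly all calls over all genes were lost, as were those of the 71. The same held for knockdown against control without 1 of the arrays compared. A call lost in such a fit is therefore not particular to a gene. Fewer genes were called without a control array and more without NU7441 replicate 2, among the 71 and among all genes alike. The comparisons of each treatment with control share the same 2 control arrays, so their likeness is not a separate result.

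**Figure D1:**
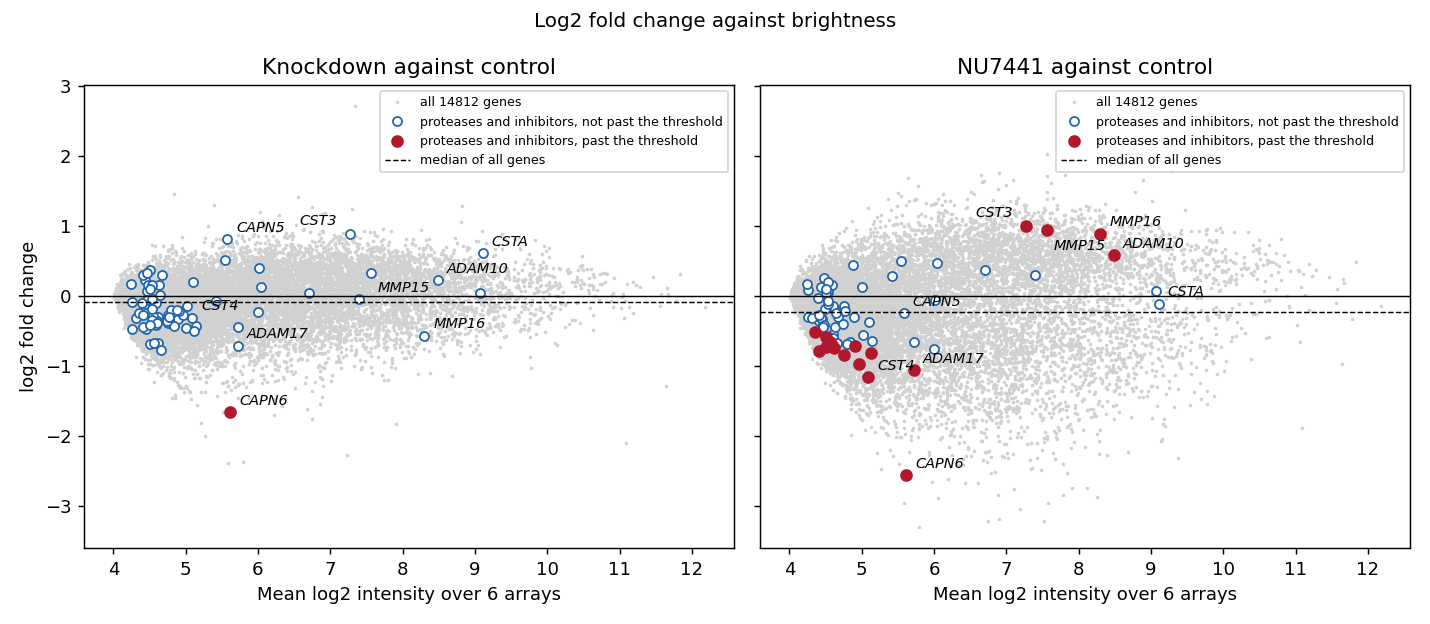
Log2 fold change of each gene (vertical axis) against its mean log2 intensity over 6 arrays (horizontal axis), for knockdown against control on the left and NU7441 against control on the right. Grey points are all 14812 genes, open circles are proteases and inhibitors that did not pass the threshold, and filled circles are those that did: 1 after knockdown and 18 under NU7441. Most of the lower calls under NU7441 sit at low mean intensity, though only 4 of them stayed under 32 on all arrays. CST3, MMP15, MMP16 and ADAM10 are bright.

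Among the 19 MMPs the membrane-type enzymes MMP15 and MMP16 rose under NU7441, and MMP14, MMP27 and MMP28 fell. MMP16, which activates gelatinase A and cuts matrix at the cell surface, had intensities of 207.4 and 188.1 in knockdown cells, 551.3 and 529.5 in NU7441 cells and 313.2 and 272.3 in control cells. The 3 groups did not overlap: NU7441 cells were highest and knockdown cells lowest. It rose 1.85-fold under NU7441 (0.89 ± 0.14, adjusted p = 0.00261) and was at −0.56 ± 0.14 after knockdown (adjusted p = 0.0842). The direct difference, knockdown over NU7441, was −1.45 ± 0.14 (adjusted p = 0.00132), and the call was lost when either knockdown array was left out (adjusted p = 0.0963 and 0.0864).

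MMP15, another membrane-type MMP, had 158.2 and 197.7 in knockdown cells, 319.0 and 227.8 in NU7441 cells and 148.2 and 132.8 in control cells. Each treated array lay above both controls, and NU7441 replicate 1 was well above its partner. It rose 1.92-fold under NU7441 (0.94 ± 0.21, adjusted p = 0.00994) and stood at 0.33 ± 0.21 after knockdown (adjusted p = 0.408).

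MMP24, a membrane-type MMP best known from the nervous system, had 76.49 and 61.90 in knockdown cells, 38.33 and 58.58 in NU7441 cells and 81.20 and 79.43 in control cells. It was the nearest to the threshold under NU7441 without passing (adjusted p = 0.0528). MMP25 is anchored to the membrane by a lipid. Its 3 probesets disagreed: the brightest was 0.66 lower under NU7441 on the log2 scale, a second was 0.34 lower and another 0.72 higher, so no direction is given for it. MMP14, the best studied membrane-type collagenase, was dim on every array, with 23.95 and 30.75 in knockdown cells, 16.09 and 17.89 in NU7441 cells and 26.09 and 24.74 in control cells. It fell under NU7441 (−0.58 ± 0.19, adjusted p = 0.0391), a call lost under both scalings.

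Of the 12 secreted MMPs 8 stayed under 32 on all arrays, and 0 were higher and 2 lower under NU7441, or 16.7% lower against 22.4% of all genes. The 2 were MMP27 (−0.79 ± 0.16) and the epithelial enzyme MMP28, or epilysin (−0.73 ± 0.18), with MMP28 lost under both scalings. MMP28 had 21.43 and 18.18 in knockdown cells, 19.35 and 18.67 in NU7441 cells and 33.82 and 29.51 in control cells. MMP13, a collagenase, had 28.24 and 28.86 in knockdown cells, 16.93 and 16.51 in NU7441 cells and 23.65 and 21.73 in control cells. The groups did not overlap, and knockdown over NU7441 was 0.77 ± 0.16 (adjusted p = 0.0228), a call lost with median centring, all at intensities near the floor. In RefSeq gene order, MMP20, MMP27, MMP8, MMP10 and MMP1 are neighbours on chromosome 11, with MMP12 and MMP13 as another adjacent pair there. Only measured genes were joined, so an MMP without a named probeset would part a run. Of these 7 genes 6 stayed under 32 on every array.

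The ADAMs with an intact active site include the main sheddases, and ADAM10 and ADAM17 moved in opposite directions under NU7441. ADAM10, which sheds Notch, E-cadherin and the amyloid precursor, had 328.6 and 368.5 in knockdown cells, 403.3 and 492.5 in NU7441 cells and 305.7 and 288.7 in control cells. All 4 treated arrays lay above both controls. It rose under NU7441 (0.58 ± 0.14, adjusted p = 0.0152) and was at 0.23 ± 0.14 after knockdown (adjusted p = 0.417). ADAM17, which releases tumour necrosis factor and ligands of the EGF receptor, had 49.51 and 47.41 in knockdown cells, 31.90 and 45.19 in NU7441 cells and 71.03 and 88.01 in control cells. Its control arrays were above all 4 treated arrays. It fell 2.08-fold under NU7441 (−1.06 ± 0.26, adjusted p = 0.0153) and stood at −0.71 ± 0.26 after knockdown (adjusted p = 0.190).

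ADAM9, a sheddase that is bright in these cells, overlapped between groups. Its intensities were 515.8 and 570.3 in knockdown cells, 520.5 and 585.8 in NU7441 cells and 535.1 and 513.5 in control cells. ADAM15, which carries an integrin-binding motif, had 94.80 and 100.8 in knockdown cells, 118.9 and 127.0 in NU7441 cells and 93.11 and 96.33 in control cells, and under NU7441 it did not pass as deposited (0.38, adjusted p = 0.152). ADAM28 fell under NU7441 (−0.74 ± 0.18) and ADAM11, which has no active site and acts in neurons, fell too (−0.85 ± 0.20), both calls being lost under both scalings. Of the 12 ADAMs with an active site 1 was higher and 2 lower under NU7441, or 8.33% and 16.7%, and of the 7 without one 0 were higher and 1 lower, or 14.3%, against 10.8% and 22.4% of all genes. ADAM23, also without an active site, was dim, at 25.08 and 28.34 in knockdown cells, 17.63 and 16.11 in NU7441 cells and 21.57 and 21.77 in control cells. Knockdown over NU7441 was 0.66 ± 0.16 (adjusted p = 0.0366), and the call was lost under both scalings. None of the 5 ADAMTS-like proteins, which resemble ADAMTS enzymes but have no protease domain, passed limma's test in any comparison, with 0 past an unadjusted p of 0.05 in each comparison against control.

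CAPN6 had the lowest log2 fold change of the 71 genes in both comparisons against control. It is a calpain that lacks the catalytic cysteine and is known to bind and stabilise microtubules. It had 40.09 and 42.22 in knockdown cells, 25.95 and 18.89 in NU7441 cells and 117.4 and 143.2 in control cells. The groups were far apart, and the NU7441 arrays came close to the floor. It fell 5.86-fold under NU7441 (−2.55 ± 0.26, adjusted p = 5.64e-04) and 3.15-fold after knockdown (−1.66 ± 0.26, adjusted p = 0.0393). With 16 taken off every value the log2 fold change was −4.40 under NU7441 and −2.18 after knockdown (adjusted p = 0.182). The knockdown call was also lost without any 1 of the 4 arrays compared (adjusted p from 0.239 to 0.417), without the mean-variance trend and with the replicate number as a block. Fewer cells that express the gene and less of its RNA per cell cannot be told apart here, for this gene or any other. Knockdown over NU7441 was 0.89 ± 0.26 (adjusted p = 0.0616).

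CAPN5, a calpain without the calcium-binding domain of the classical enzymes, read highest in knockdown cells. Its main probeset had 71.70 and 74.97 in knockdown cells, 36.14 and 34.84 in NU7441 cells and 42.00 and 41.82 in control cells. Knockdown over NU7441 was 1.05 ± 0.23 (adjusted p = 0.0260), and knockdown over control 0.81 ± 0.23 (adjusted p = 0.104). Only knockdown over NU7441 was called, and that call was lost after quantile normalization (adjusted p = 0.0512). Its second probeset did not share this, with 26.99 and 27.45 in knockdown cells, 21.36 and 25.64 in NU7441 cells and 32.77 and 32.97 in control cells, so the gene's direction after knockdown is uncertain. With the probesets averaged the difference was 0.63 (adjusted p = 0.101).

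CAPN12, known from skin and hair follicles, fell under NU7441 (−0.97 ± 0.26, adjusted p = 0.0197), as did CAPN11, a testis calpain (−0.52 ± 0.15, adjusted p = 0.0292), and both calls were lost under both scalings. CAPN7, which works with the ESCRT machinery, had 164.8 and 143.4 in knockdown cells, 213.4 and 179.2 in NU7441 cells and 176.1 and 142.3 in control cells, and did not pass. In all, 0 of the 11 calpains were higher and 3 lower under NU7441, or 27.3% lower against 22.4% of all genes. After knockdown 0 were higher and 1 lower, or 9.09% against 0.486% of all genes.

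ST14, or matriptase, was the 1 serine protease measured. It had 81.19 and 75.93 in knockdown cells, 52.39 and 63.59 in NU7441 cells and 65.96 and 54.30 in control cells. The knockdown arrays lay above the others, which overlapped, and limma's test called it in none of the 3 comparisons.

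**Figure D2:**
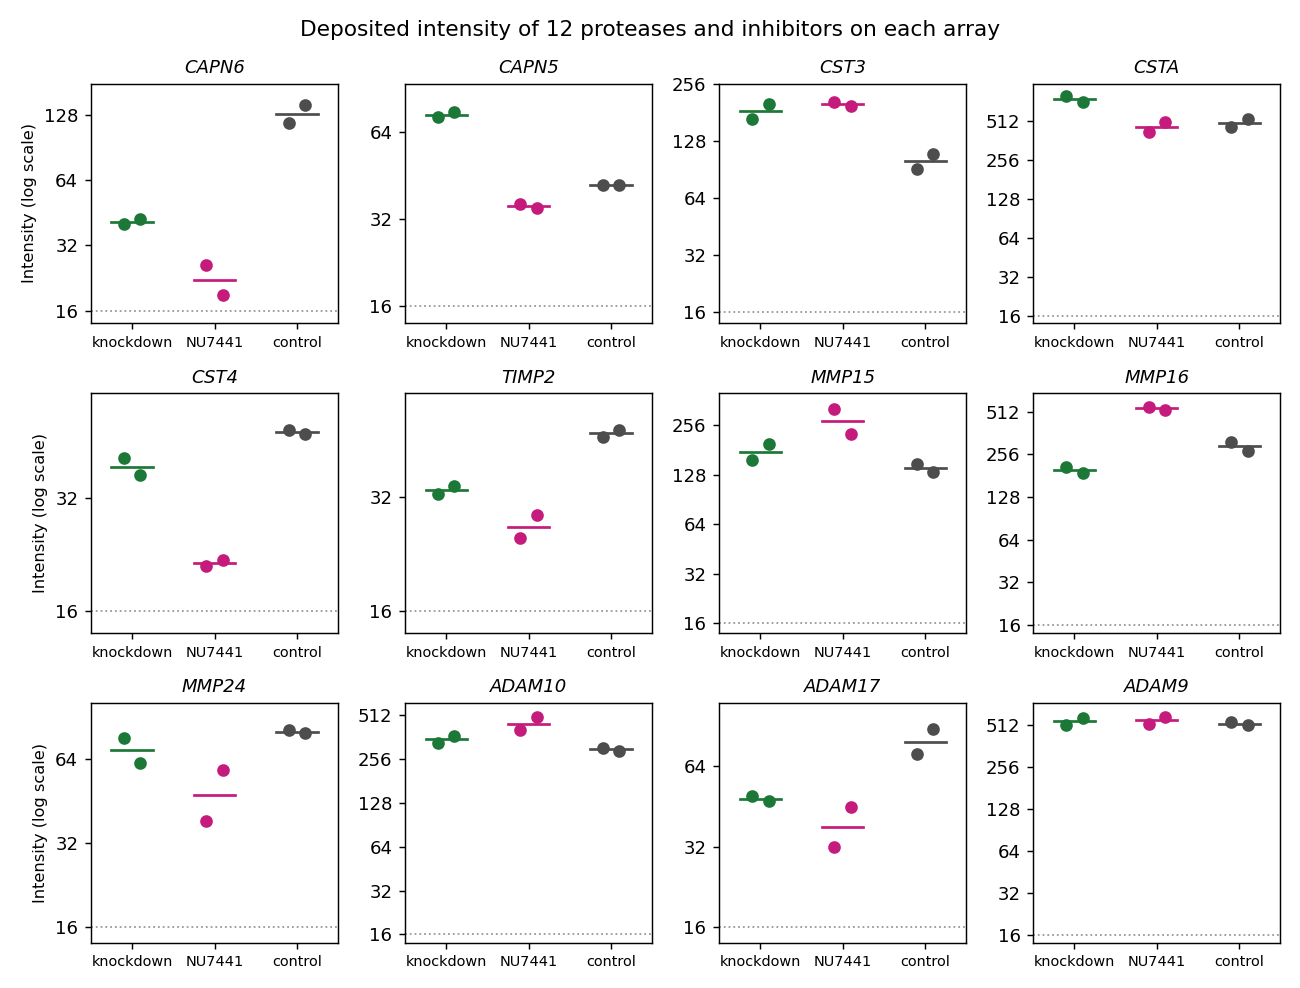
Deposited intensity (vertical axis, log scale) of 12 genes in the knockdown, NU7441 and control groups. Points are arrays, short lines are the geometric means of 2 arrays, and the dotted line is the floor of 16; the axes differ between genes. CAPN6 is low in both treated groups, CST3 is high in both, CSTA and CAPN5 are highest after knockdown, and MMP16 is high under NU7441 and low after knockdown.

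The inhibitors did not move as a block either. All 4 TIMPs had negative log2 fold changes in both comparisons against control, as did 8843 of the 14812 genes after knockdown and 9630 under NU7441. Under NU7441 2 of the 4 fell, against 22.4% of all genes. TIMP2, which inhibits MMPs and also takes part in the activation of gelatinase A, had 32.58 and 34.21 in knockdown cells, 24.92 and 28.80 in NU7441 cells and 46.30 and 48.23 in control cells. It fell under NU7441 (−0.82 ± 0.23, adjusted p = 0.0226). TIMP4 fell as well (−0.66 ± 0.21, adjusted p = 0.0387), with 23.06 and 17.55 in knockdown cells, 19.45 and 21.32 in NU7441 cells and 28.46 and 36.36 in control cells. Both calls were lost under both scalings, where the log2 fold change of TIMP2 was −0.50. TIMP3 was dim and its 2 probesets differed in sign after knockdown (−0.31 and 0.07).

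Among the cystatins CST3 rose and 3 of its chromosomal neighbours fell under NU7441. CST3, or cystatin C, a secreted inhibitor of cathepsins, had 167.7 and 201.5 in knockdown cells, 205.3 and 194.7 in NU7441 cells and 90.75 and 109.8 in control cells. All 4 treated arrays lay well above both controls. It rose 2.00-fold under NU7441 (1.00 ± 0.19, adjusted p = 0.00526), and after knockdown it was 1.84-fold the control without passing as deposited. Knockdown over NU7441 was −0.12 ± 0.19 (adjusted p = 0.710). CST3 sits in a run of 9 adjacent cystatin genes on chromosome 20, and of the other 8 CST4 (−1.16 ± 0.22), CST9 (−0.72 ± 0.22) and CST2 (−0.70 ± 0.22) fell under NU7441. The calls of CST9 and CST2 were lost under both scalings. In the run 11.1% were higher and 33.3% lower, against 10.8% and 22.4% of all genes, and 5 of the 9 stayed under 32 on all arrays. CST4, or cystatin S, had 40.67 and 36.67 in knockdown cells, 21.03 and 21.90 in NU7441 cells and 48.37 and 47.26 in control cells, and knockdown over NU7441 was 0.85 ± 0.22 (adjusted p = 0.0454, lost under both scalings). CST1, CST2 and CST4 are close in sequence, so their probes may read one another.

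CSTA, or stefin A, an inhibitor of cathepsins inside epithelial cells, read highest in knockdown cells. It had 789.2 and 713.8 in knockdown cells, 417.6 and 495.2 in NU7441 cells and 456.9 and 524.9 in control cells. Both knockdown arrays lay above the other 4, which overlapped. Knockdown over NU7441 was 0.72 ± 0.13 (adjusted p = 0.0125), a call lost without either knockdown array and without the mean-variance trend. NU7441 over control was −0.11 ± 0.13. CST7, a cystatin of leukocytes, had 60.24 and 65.09 in knockdown cells, 85.44 and 73.89 in NU7441 cells and 58.01 and 56.63 in control cells, and did not pass under NU7441 as deposited (adjusted p = 0.124), while after median centring it did. Of the 4 leukocyte markers measured 3 stayed under 32 on all arrays.

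**Figure D3:**
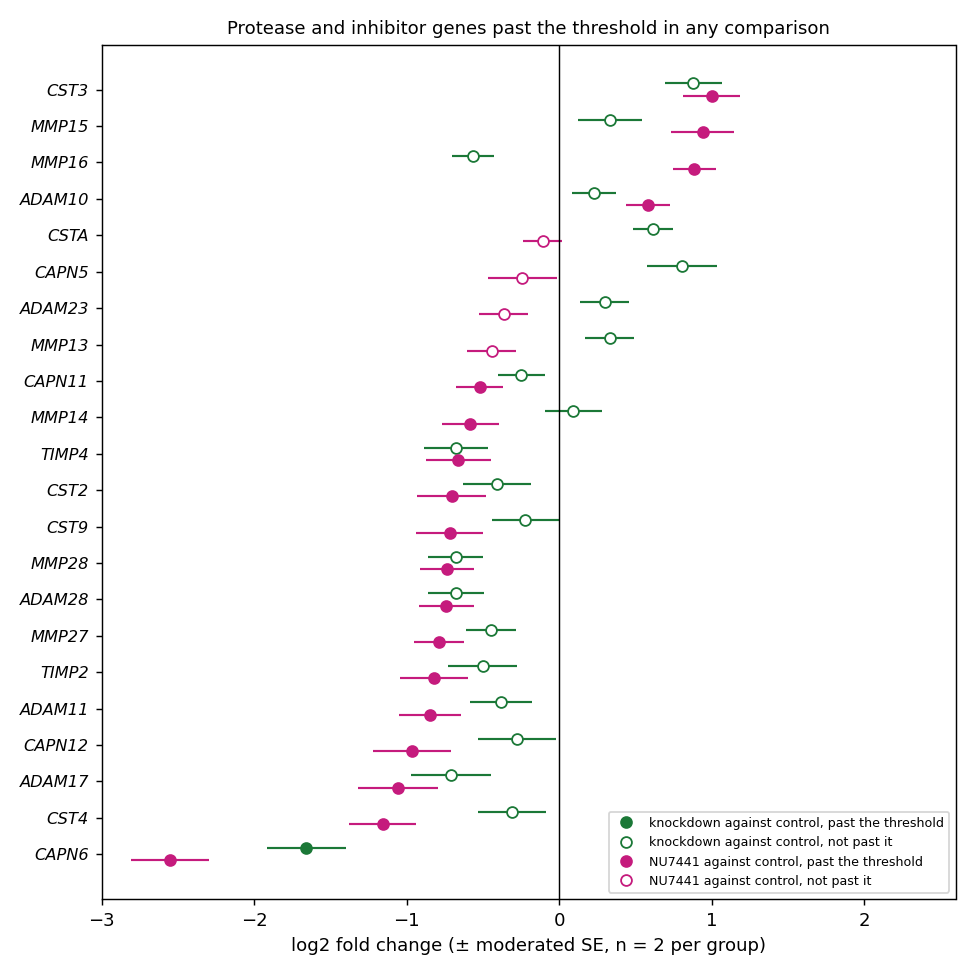
Log2 fold change (horizontal axis, ± moderated SE, n = 2 per group) of the 22 protease and inhibitor genes that passed the threshold in any of the 3 comparisons. Green is knockdown against control and magenta NU7441 against control, and filled symbols passed the threshold in that comparison. CAPN6 is the only gene filled in both. The 2 comparisons lie on opposite sides of 0 for MMP16, MMP13, MMP14, ADAM23, CAPN5 and CSTA.

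A list of invasion-related proteases was set against a list of protease inhibitors. The measured proteases are MMPs, ADAMs and ST14. The measured inhibitors are the 4 TIMPs and cystatins, which inhibit cysteine proteases of the papain family. Only the TIMPs inhibit enzymes of the measured protease list, so the gap given here is not a balance of proteases and their own inhibitors. The protease list had 26 measured genes of 40 listed and the inhibitor list 10 of 25. Under NU7441 3 proteases rose (MMP15, MMP16 and ADAM10) and 4 fell (MMP14, MMP28, ADAM17 and ADAM28), or 11.5% and 15.4%, while 1 inhibitor rose (CST3) and 4 fell (TIMP2, TIMP4, CST2 and CST4), or 10% and 40%, against 10.8% and 22.4% of all genes. The median log2 fold change was −0.10 for proteases and −0.26 for inhibitors, against −0.23 for all genes. After knockdown limma's test called 0 of either list. At an unadjusted p under 0.05 the lists had 0 proteases higher and 6 lower and 2 inhibitors higher and 1 lower. Over all 14812 genes 989 were higher and 1916 lower at that level. The medians after knockdown were −0.20 for proteases and −0.29 for inhibitors, against −0.09 for all genes. The gap between the medians, proteases minus inhibitors, was 0.15 under NU7441 and 0.09 after knockdown, with a pooled SD between replicate arrays of 0.06. By array, relative to the control mean, it was 0.13 and 0.14 in knockdown cells, 0.14 and 0.06 in NU7441 cells and 0.06 and −0.06 in control cells, so NU7441 replicate 2 did not exceed control replicate 1. The sign turned when genes below the median brightness of all genes were left out, to −0.37 under NU7441 and −0.70 after knockdown. Then 9 proteases and only 2 inhibitors, the cystatins CST3 and CSTA, were left.

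**Figure D4:**
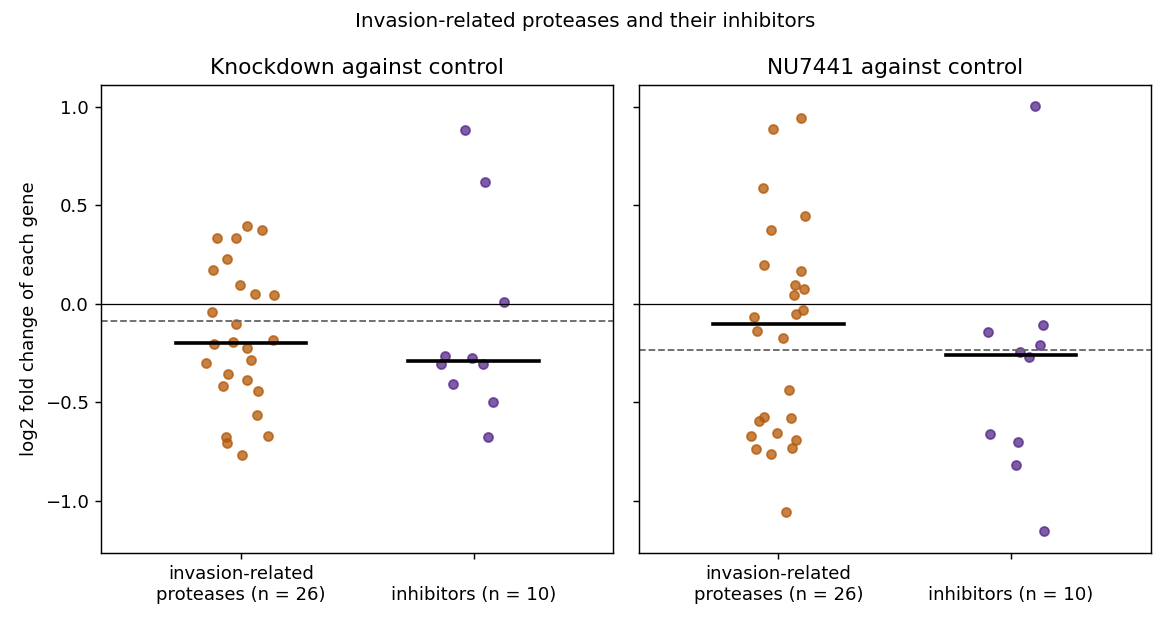
Log2 fold change (vertical axis) of 26 invasion-related proteases and 10 inhibitors after knockdown (left) and under NU7441 (right), 1 point per gene with random horizontal spread. Thick lines are list medians, −0.20 and −0.29 after knockdown and −0.10 and −0.26 under NU7441, and the dashed line is the median of all genes. The 2 lists overlap in both panels.

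Other proteases and inhibitors of the same systems, 39 measured genes of a list of 48, had fewer dim members, with 3 of 39 under 32 on all arrays. Under NU7441 11 rose and 9 fell, or 28.2% and 23.1%, against 10.8% and 22.4% of all genes and 13.9% and 25.3% of genes that are not dim. Of 10 cathepsins 5 rose and 1 fell, with log2 fold changes from −0.89 to 1.26. The list was chosen with earlier results of these data known and the cathepsins were counted after the values were seen, so these shares only describe. CTSB, cathepsin B, a target of the cystatins, had 114.2 and 106.7 in knockdown cells, 209.0 and 162.1 in NU7441 cells and 83.34 and 70.91 in control cells (1.26 ± 0.21 under NU7441). KLK4 (1.35 ± 0.14), a prostate kallikrein, and HTRA1 (1.23 ± 0.23), a secreted serine protease, were the other highest. LRP1 (−1.58 ± 0.25), a receptor that clears protease and inhibitor complexes, FURIN (−1.28 ± 0.28), which activates membrane-type MMPs and ADAMs, and HTRA2 (−1.25 ± 0.29), a mitochondrial protease, were the lowest. KLK4 kept its call without any 1 array, while HTRA1, HTRA2 and FURIN lost it without either control array, and CTSB and LRP1 without control replicate 2. After knockdown 1 gene rose (2.56%) and 0 fell at the threshold, against 0.284% and 0.486% of all genes. At an unadjusted p under 0.05 the list had 6 higher and 5 lower genes, against 989 and 1916 of all 14812 genes. The gene that rose at the threshold was SLPI, an inhibitor of neutrophil elastase. It had 865.0 and 1006 in knockdown cells, 248.7 and 264.2 in NU7441 cells and 361.8 and 408.7 in control cells. Its call was lost when any 1 knockdown or control array was left out (adjusted p from 0.0868 to 0.399). Knockdown over NU7441 was 1.86 ± 0.13 for SLPI, 1.11 ± 0.29 for HTRA2 and 0.98 ± 0.24 for DPP4, a membrane dipeptidase, against −1.36 ± 0.23 for HTRA1, −1.14 ± 0.14 for KLK4 and −0.96 ± 0.25 for PCSK6, a furin-like convertase. HTRA2, DPP4, HTRA1, KLK4 and PCSK6 lost this call when either knockdown array was left out, and SLPI lost it without knockdown replicate 2 (adjusted p = 0.0728).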

How the data were processed

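The authors deposited 1 linear intensity per probeset and array, per the file headers and values, and 0 columns belonged to no sample. Per the labels' protocols, Trizol RNA was amplified to cDNA with a whole-transcriptome kit and labelled with biotin. How the arrays were summarised and normalized, and on which build, is not given in the sources used here. The design foresaw a log2 transform, applied without further scaling.

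Of 44629 probesets 15835 had 1 symbol in the platform table, 0 had several and 28794 were unnamed here. All 15835 gene identifiers matched the RefSeq table of GRCh38.p14, and 0 symbols changed. The brightest probeset stood for each of 14812 genes, with 4 of the 71 members having several. No detection flags were given and no filter was applied, so folds near the floor are as measured.

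All 6 arrays entered 1 linear model in limma (version 3.58.1, R 4.3.3), with empirical Bayes moderation along the mean-variance trend, two-sided tests and adjustment over all genes. The model assumes 1 spread, while the median SD between replicates was 0.139 (log2) in knockdown, 0.215 in NU7441 and 0.087 in control cells. Groups of 2 are too small for an exact permutation test to pass the threshold. The number of arrays limits the precision, and p-values measure the spread between these cultures. Alternatives are given in the closing section.

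The members and lists were chosen with earlier results of these data known. Named are members past the threshold in any comparison, the 3 brightest of each family in controls, list members above the median of all genes in controls, the 2 nearest outside each threshold, and the 3 highest and 3 lowest called genes of the further list. Not every gene the rule allows is described. The threshold of 32 for dim genes, the active-site and anchoring groups and the cathepsin count were chosen after the values were seen.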

Additional observations from a re-analysis of the deposited data

Results flagged for a closer look

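For 6 genes the response to depletion differed from the response to inhibition in limma's direct test of knockdown against NU7441. The log2 difference was −1.45 for MMP16, 0.66 for ADAM23, 0.77 for MMP13, 0.72 for CSTA, 0.85 for CST4 and 1.05 for CAPN5. MMP16 and CSTA kept the call under quantile normalization and under median centring. ADAM23 and MMP13 stayed under 32 on all arrays, and the second probeset of CAPN5 did not share its direction against control. The 2 treatments also differ in duration, 96 h for the knockdown and 24 h for NU7441, so treatment and time cannot be told apart. Which arrays received the control siRNA pool is not stated. Transfection and depletion therefore cannot be told apart in either comparison with knockdown. Groups of 2 arrays are too small for a search for outlying arrays.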

How the results depend on the processing

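For knockdown against control 1 gene was called as deposited, 3 after quantile normalization, 2 with median centring, 0 with the offset of 16 taken off, 0 without the trend, 11 with the compared groups alone, 13 with array weights, 0 with a replicate block, and 0 to 12 without 1 array. The 0 counts of limma's test stand beside 4 higher and 8 lower genes at an unadjusted p under 0.05 with the offset off. They were 4 and 13 without the trend, and 3 and 10 with the block. As deposited 3 of the 71 were higher and 11 lower at that level, against 989 and 1916 of all 14812 genes. For NU7441 against control the count of 18 became 10 after quantile normalization, 7 with genes below the median brightness left out, here called dim (17 of the 71 tested) and 2 to 30 without 1 array, and was within 1.5 times in the other planned settings. For knockdown against NU7441 the count of 6 became 3 after quantile normalization, 2 with the compared groups alone, 3 with array weights and 0 to 21 without 1 array. Leaving out dim genes after quantile normalization, added after the data were seen, gave 5, 8 and 3 calls in that order. Over all genes kept in that setting the counts were 378, 3814 and 1693. The same-number deviations of the groups correlated between −0.07 and −0.01. They gave no sign that the replicate numbers pair the arrays, though 2 arrays per group cannot settle it. The replicate block gave 0, 17 and 4 calls in the same order, against 37, 4490 and 1025 over all genes.

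The gap between protease and inhibitor medians was 0.20 after knockdown and 0.49 under NU7441 with the offset off, −0.70 and −0.37 with dim genes left out, and −0.71 and −0.28 when these were also quantile normalized. Under NU7441 it was 0.21 with probesets averaged and 0.058 to 0.298 without 1 array, and after knockdown 0.09 to 0.14. Signs that turned were of uncalled values. CAPN5 under NU7441 was at 0.098 after quantile normalization, with or without dim genes, and 0.079 with median centring. CSTA under NU7441 was at 0.213 with median centring and between −0.23 and 0.016 without 1 array, and MMP14 after knockdown between −0.085 and 0.276 without 1 array. Of all called genes the share that was lower under NU7441 was 67.4% as deposited, 47.8% after quantile normalization and 33.0% with median centring, and the cause was not tested. Where 1 array is left, it is assumed to vary like the other groups.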
